A study of Mus musculus with 2 samples.

Results

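The 52 genes described here encode proteins of regulated membrane fusion and vesicle tethering. They were taken by name, as every single-symbol probe set whose gene is a numbered Vamp, Stx, Snap, Syt or Exoc gene, with a trailing letter allowed, and they comprise 52 of 18193 genes and 120 of 45037 probe sets on the array. The genes fell into 7 vesicle-associated membrane proteins (Vamp), 14 syntaxins (Stx), 5 Snap genes, 16 synaptotagmins (Syt) and 10 genes named for the exocyst (Exoc). Their signals were read in 2 pools of ANSO4E cells, a mouse neural stem cell line derived from a transgenic animal, that carried a lentiviral siRNA library against the mouse genome. The MNNG survivors had been exposed to 500 µM N-methyl-N′-nitro-N-nitrosoguanidine, a DNA alkylating agent, for 15 min, and, per the methods, were regrown and exposed again before harvest. The reference control carried the same library and was left untreated. siRNA inserts were recovered by PCR, labeled with biotin and hybridized to an Affymetrix array that covers the mouse genome, with 1 array per condition. A signal is therefore taken as the abundance of inserts that match a gene's probes and not as expression of that gene. The lineage of the cells therefore cannot be checked from it, whatever the values. Inserts for 9 genes that mark neural stem cells, such as Nes and Sox2, had differences between -0.68 and 0.68, which do not bear on lineage.

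SNARE proteins bring membranes together. A vesicle SNARE of the VAMP type pairs with a syntaxin and a SNAP-25-like protein on the target membrane, and the bundle they form pulls the lipid bilayers into contact. Synaptotagmins are membrane proteins with C2 domains, several of which bind calcium and trigger fusion at synapses and in secretory cells, whereas the exocyst is a tethering complex that holds secretory vesicles at the plasma membrane before SNAREs engage. In neural cells this machinery releases transmitters and peptides and adds membrane to growing processes. Vamp3, Snap91 and the exocyst gene Exoc6 (under its older name Sec15l1) are among the genes that the study selected from the screen as higher in surviving cells, by a minimum signal and a minimum ratio, with Vamp3 placed there under cell death, Snap91 under regulation of transcription and Exoc6 under transporters. The deposited values are on another scale than the signal intensities listed for these genes, and the step between them is not stated in these sources. The signs given below are those of the deposited values alone. Snap91 shares only its name with the SNAP-25 group. It encodes AP180, an adaptor that assembles clathrin coats on synaptic vesicle membrane.

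The deposited signals are on the log2 scale, and each gene was read at its probe set of highest mean over both arrays, with the others beside it. Differences are survivors minus reference control on the log2 scale. Over all probe sets the survivors had a median signal of 0.74, with the middle of the distribution at 0.51 to 1.07, and the reference control a median of 0.69, with the middle at 0.43 to 1.02 (25th to 75th percentile). Signals above 5 were held by 58 probe sets in the survivors and 301 in the reference control. The 18 hybridization controls were all higher in the survivors, with medians of 11.73 in the survivors and 8.91 in the reference control. Without replicate arrays no difference has an error or a p-value, and each value below compares these 2 arrays only.

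Most of the 52 genes lay at the common low level of the arrays. Their signals ran from 0.058 to 6.49 with a median of 0.87 in the survivors and from -0.0050 to 5.92 with a median of 1.05 in the reference control. A signal above 2 was found for 6 members in the survivors and 8 in the reference control. Against the reference control, 17 members had a higher signal in the survivors, 25 a lower one and 10 an identical one. Over all genes 7915 were higher, 6939 lower and 3339 equal. The median difference was 0.00 for the members and 0.00 for all genes, with the middle of the members at -0.39 to 0.19 and that of all genes at -0.32 to 0.43.

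**Figure D1:**
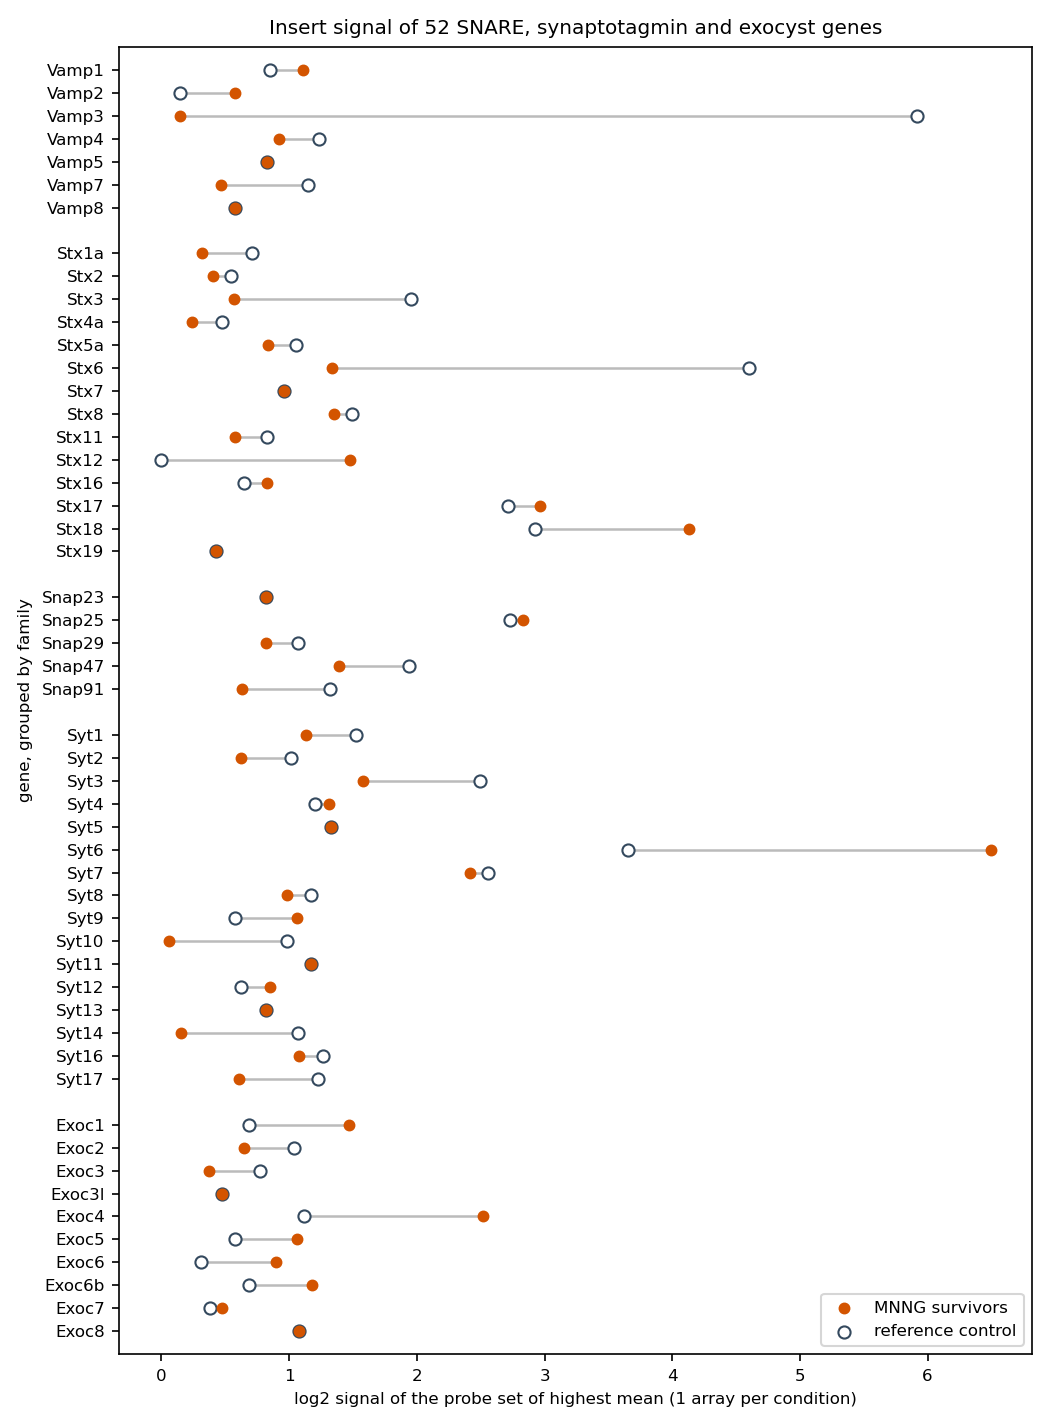
Log2 signal (horizontal axis) of each of the 52 genes at its probe set of highest mean, grouped by family down the page, in the MNNG survivors (filled orange) and the reference control (open); a grey line joins both arrays. Long lines are seen for Vamp3 and Stx6, which were lower in the survivors, and for Syt6, which was higher, while most pairs lie between 0 and 2.

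A difference of more than 1 on the log2 scale, which is a 2-fold change, was counted as a call. By this measure 4 of the 52 members were higher in the survivors, against 4.78% of all genes, and 3 were lower, against 5.45% of all genes. The members' shares were 7.69% and 5.77%. Beyond 2.5, 1 member was higher (0.253% of all genes) and 2 were lower (1.73% of all genes). The 4 higher members were Syt6, Stx12, Exoc4 and Stx18, and the 3 lower ones were Vamp3, Stx6 and Stx3. Syt1 was not counted, although a probe set with the same mean as its main one had a difference of 1.30. Taken over all probe sets of the members, 7 of 120 were higher by more than 1 (3.75% of all probe sets) and 5 were lower by as much (3.93%). Of the 120, 1 was higher by more than 2.5 (0.155% of all probe sets) and 3 were lower by as much (1.01%). The shares past 1 among the members thus lay near those of all genes, and the counts past 2.5 rest on 3 genes. The probe set of highest mean can be one that is bright on 1 array only, as for Vamp3. With the median over each gene's probe sets, 2.13% of all genes were higher by more than 1 and 2.04% lower, and 1 and 0 of the members.

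**Figure D2:**
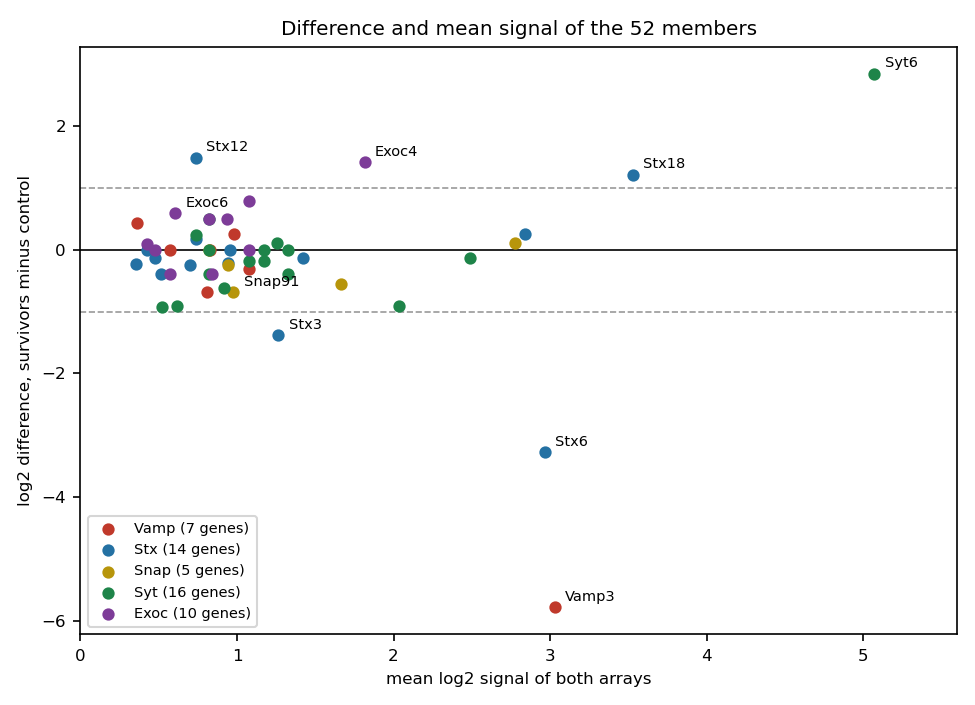
Difference of the 52 members on the log2 scale, survivors minus reference control (vertical axis), plotted over the log2 signal averaged across both arrays (horizontal axis) and colored by family; dashed lines mark differences of 1 and -1. Syt6 stands alone at the upper right with a difference of 2.84, Vamp3 and Stx6 lie lowest at -5.78 and -3.27, and most members sit near 0 at a mean signal below 1.5.

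Among the vesicle SNAREs, Vamp3 carried the only difference beyond 1. Vamp3 encodes cellubrevin, a VAMP of recycling endosomes that is present in most cell types. Its probe set of highest mean had 0.14 in the survivors and 5.92 in the reference control, a difference of -5.78. The survivor value lay at percentile 3.58 of its array, and the reference control value at percentile 99.6. The other 4 probe sets of Vamp3 did not share this. Of these, 1 had 0.76 in the survivors and 1.5 in the reference control, 1 had 0.36 in the survivors against 0.79 in the reference control, and 2 were equal on both arrays at 1.42 and at 0.60. No probe set of Vamp3 was higher in the survivors. The accession that the study lists for Vamp3 belongs to a probe set annotated as Gm38529, which had 0.88 in the survivors and 1.59 in the reference control, a difference of -0.71.

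The large Vamp3 difference came from a probe set of the class whose names end in _x_at, in which some probes are also nearly identical to unrelated sequences. Over the whole array, 162 of 2441 such probe sets (6.64%) had a survivor signal more than 2.5 below the control, against 156 of 36082 plain _at probe sets (0.432%), 89 of 4426 _a_at (2.01%) and 46 of 2088 _s_at probe sets (2.20%). Among the members 2 of 11 _x_at probe sets lay that far below, those of Vamp3 and Stx6, as did 1 of 18 _a_at probe sets, that of Stx18, 0 of 3 _s_at and 0 of 88 plain ones. Reference control signals above 5 were also commoner in this class, at 109 of 2441 _x_at probe sets (4.47%) against 107 of 36082 plain ones (0.297%). Survivor signals more than 2.5 above the control were held by 12 of 2441 _x_at probe sets (0.492%) and 39 of 36082 plain ones (0.108%). Among the members 0 of 11 _x_at and 1 of 88 plain probe sets lay that far above. Which other inserts the _x_at probes could read, and how the counts depend on control signal, was not tested.

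The remaining 6 VAMP genes differed by at most 0.68 at their main probe sets. Vamp2, the main VAMP of synaptic vesicles, had 0.58 in the survivors and 0.15 in the reference control, a difference of 0.43, and its second probe set had the mirror value of -0.43. Vamp1, which serves the same role in other neurons and at the neuromuscular junction, likewise had 0.25 and -0.25 at its probe sets, with 1.11 in the survivors and 0.85 in the reference control at the main one. Signs that turn between probe sets of a gene give these no direction. Vamp7, a VAMP of late endosomes and lysosomes, had 0.46 in the survivors and 1.15 in the reference control, a difference of -0.68, and was equal at its other probe set. Vamp4, of the trans-Golgi network, was lower at all 3 of its probe sets, by differences from -0.49 to -0.21. Vamp5 and Vamp8 were equal on both arrays at their main probe sets. Over the 7 genes, 2 were higher, 3 lower and 2 equal, with a median of 0.00.

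Among the 14 syntaxins 2 were higher by more than 1, Stx12 and Stx18, and 2 were lower, Stx3 and Stx6, beside 4.78% and 5.45% of all genes. None of the 4 was past 1 when all probe sets of a gene were reduced to their median. Stx6, a syntaxin of the trans-Golgi network and endosomes, had 1.33 in the survivors and 4.6 in the reference control, a difference of -3.27, at its _x_at probe set. Its other 5 probe sets did not follow: 4 were higher in the survivors, by 0.43, 0.70, 0.78 and 0.91, and 1 was equal at 0.98. Once the _x_at and _s_at probe sets were left out, Stx6 was read as 1.59 in the survivors and 0.89 in the reference control.

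Stx18, a syntaxin of the endoplasmic reticulum that acts in transport back from the Golgi, was the member whose probe sets differed most from each other besides Vamp3. Its main probe set had 4.13 in the survivors and 2.92 in the reference control, a difference of 1.21. A second had 0.30 in the survivors and 4.11 in the reference control, a difference of -3.82. The other 3 had differences of -0.68, -0.49 and 0.33, and the one at -0.68 came from the same accession as the main probe set. All 3 are of the _x_at class, whereas those at 1.21 and -3.82 are _a_at. Inserts against Stx18 thus have no single direction on these arrays.

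Stx3 and Stx12 lay at lower signals. Stx3, the syntaxin of apical membranes and of ribbon synapses, had 0.57 in the survivors and 1.96 in the reference control, a difference of -1.39. Its other 3 probe sets had differences of -0.43, -0.14 and 0.48. Stx12, an endosomal syntaxin also called syntaxin 13, had 1.48 in the survivors and -0.0050 in the reference control, a difference of 1.48. The second probe set of Stx12 was also higher, with 0.93 in the survivors and 0.50 in the reference control. Its reference control value at the main probe set was at percentile 1.41 of the array, and with both arrays floored at their 25th percentile the difference was 1.05.

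The 10 other syntaxins differed by at most 0.39 at their main probe sets. Stx1a, the neuronal plasma membrane syntaxin, had 0.32 in the survivors and 0.71 in the reference control, a difference of -0.39, and 0.59 at its other probe set. Stx17, which mediates fusion of autophagosomes with lysosomes, had 2.97 in the survivors and 2.71 in the reference control, with 4 probe sets from -0.32 to 0.29. Stx8, a late endosomal syntaxin, had a difference of -0.14 at its main probe set, and its other 2 gave -1.0 and 0.79. Of the 14 syntaxins 4 were higher, 8 were lower and 2 were equal, with a median of -0.14.

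The Snap genes showed no call. Snap25, the neuronal partner of syntaxin 1, had 2.83 in the survivors and 2.73 in the reference control, a difference of 0.10, and 0.49 at its second probe set. Snap23, its counterpart in other cells, was equal at 0.82 at the main probe set and higher by 0.33 and 0.68 at the others. Snap47 had 1.39 in the survivors and 1.94 in the reference control, a difference of -0.55 at an _x_at probe set, and 0.23 at the other. Snap29, which takes part in fusion of autophagosomes and endosomes, had -0.25 at the main probe set and 0.33 and 0.48 at the others.

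Snap91 was lower in the survivors at both of its probe sets. The main one had 0.63 in the survivors and 1.32 in the reference control, a difference of -0.68, and the second had 0.45 in the survivors and 0.70 in the reference control, a difference of -0.25. The accession listed for Snap91 in the study matched no probe set in the annotation used. In this family 1 gene was higher, 3 were lower and 1 was equal, with a median of -0.25. This direction depended on the probe set: it was 0.30 once all probe sets of a gene were reduced to their median.

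Among the synaptotagmins Syt6 was higher in the survivors at every probe set. Syt6 belongs to the synaptotagmins linked by disulfide bonds and is known for its part in the acrosome reaction of sperm. Its main probe set had 6.49 in the survivors and 3.65 in the reference control, a difference of 2.84. A second, of the _x_at class, had 3.22 in the survivors and 2.21 in the reference control, a difference of 1.02. Another had 2.22 in the survivors and 0.52 in the reference control, a difference of 1.71. The last had 1.05 in the survivors and 0.87 in the reference control, a difference of 0.18. Of these 4 probe sets, 3 come from a single accession and the one at 1.71 from another. Probe sets of both accessions thus differed by more than 1, and those of the shared accession are not independent of each other. The difference at the main probe set was of a size that no other probe set on the array held.

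**Figure D3:**
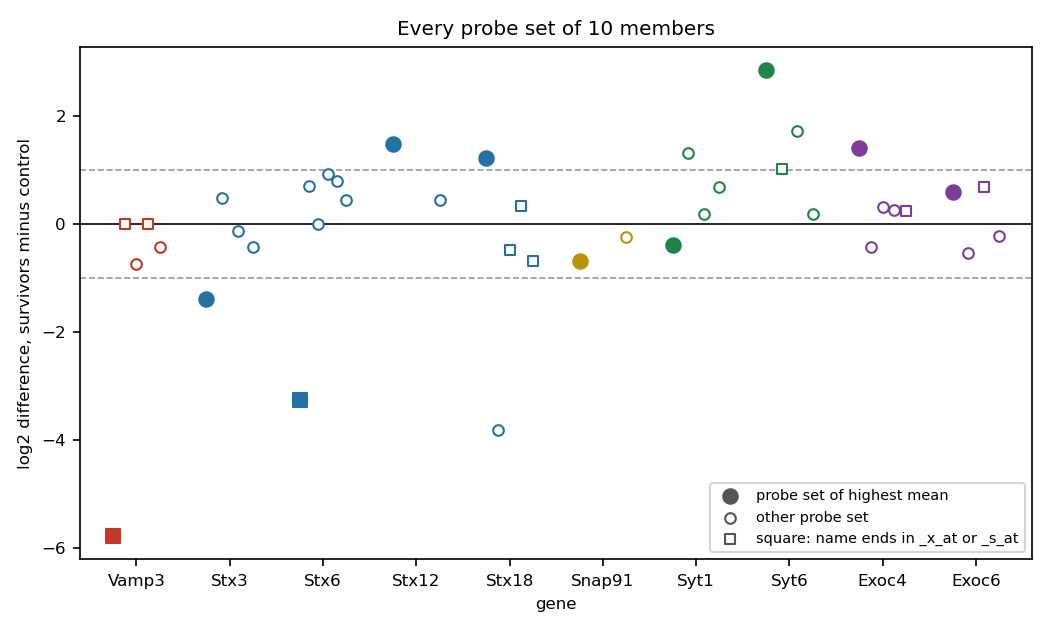
Log2 difference, survivors minus reference control (vertical axis), at every probe set of 10 members (horizontal axis): those past 1 at some probe set with several in all, other than Stx8, with Snap91 and Exoc6. Filled symbols are the probe sets of highest mean, squares are names ending in _x_at or _s_at and dashed lines mark 1 and -1; all 4 Syt6 points lie above 0, whereas the points at -5.78 for Vamp3 and -3.27 for Stx6 lie far from the others of the same gene.

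None of the other 15 synaptotagmins differed by more than 1 at its main probe set. Syt10, a calcium sensor for secretion of growth factor in olfactory bulb neurons, had 0.058 in the survivors and 0.98 in the reference control, a difference of -0.92. Syt3, another disulfide-linked synaptotagmin, had 1.58 in the survivors and 2.49 in the reference control, a difference of -0.91, and Syt14 had 0.16 in the survivors and 1.07 in the reference control, also a difference of -0.91. Each of these 3 genes has a single probe set. Syt9, a fast calcium sensor, had 1.07 in the survivors and 0.57 in the reference control, a difference of 0.49.

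Syt1, the principal calcium sensor of synchronous transmitter release, was read in opposite ways. Its main probe set had 1.13 in the survivors and 1.52 in the reference control, a difference of -0.39. The other 3 were higher in the survivors, by 0.18, 0.68 and 1.30, the last with 1.98 in the survivors and 0.67 in the reference control. That last probe set had the same mean signal as the main one, 1.33, so probe set name alone settled the choice. Syt2, which serves fast synapses of the hindbrain and muscle, had -0.39, -0.25 and 0.49 at its 3 probe sets. Its probe sets at -0.39 and 0.49 also had equal means, of 0.82. Syt7, a sensor of slower release, ran from -0.49 to 0.25 over 4. In the family as a whole 4 genes were higher, 9 were lower and 3 were equal, with a median of -0.16. These counts read Syt1 and Syt2 as lower, at -0.39 each, by the order of names. At the probe set of highest survivor signal the Syt median was 0.00.

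In contrast to the other 4 families, the exocyst genes had more members higher than lower at their main probe sets. Among all genes, too, more were higher (7915) than lower (6939). Of the 10 exocyst genes, 6 had a higher, 2 a lower and 2 an equal signal in the survivors, with a median of 0.29 beside 0.00 for all genes. Exoc4, the Sec8 subunit, had 2.52 in the survivors and 1.11 in the reference control, a difference of 1.41, and was the only exocyst gene past 1. Its other 4 probe sets had differences of -0.43, 0.23, 0.25 and 0.30. Exoc1, the Sec3 subunit that marks sites of exocytosis on the plasma membrane, had 1.47 in the survivors and 0.69 in the reference control, a difference of 0.79, and 0.91 at its second probe set. Exoc6b, a paralog of Exoc6, was also higher at both of its probe sets, by 0.49 and 0.43. The median of the family was -0.10 at the probe set of highest control signal, and -2.53 when the arrays were centered on the hybridization controls, where that of all genes was -2.82. With the median over each gene's probe sets, the Exoc median was 0.16 and the Snap median 0.30. At the probe set of highest survivor signal the Stx and Snap medians were also above 0, at 0.088 and 0.10. The contrast between families thus depended on the probe set.

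Exoc6, the Sec15 subunit that links the exocyst to Rab GTPases on the vesicle, had no single direction. At its main probe set it had 0.90 in the survivors and 0.31 in the reference control, a difference of 0.59. A second had 0.30 in the survivors and 0.85 in the reference control, a difference of -0.55. The accession listed for the gene is held by the other 2. At the first of these the survivors had 0.57 and the reference control -0.11, a difference of 0.68, while at the other the survivors had 0.028 and the reference control 0.26, a difference of -0.23. A pair of probe sets shared between Exoc6 and Sh3glb1, which name no single gene, had differences of -0.69 and -0.37. Exoc2 and Exoc3 were the 2 lower exocyst genes, each with a difference of -0.39, but the second probe set of Exoc3 was higher by 0.68. Exoc5 had 0.49 and -0.19 at its probe sets, Exoc7 had 0.092, and Exoc8 and Exoc3l were equal at their main probe sets.

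Of the 35 members with several probe sets, 18 (51.4%) had differences of both signs, against 47.7% of the 9010 such genes on the array. The range of differences within a gene had a median of 0.74 for the members and 0.68 for all genes. Every probe set was higher in 6 members and lower in 3. The 6 were Exoc1, Exoc6b, Snap25, Stx12, Syt4 and Syt6, and the 3 were Snap91, Stx11 and Vamp4. The shares of genes with every probe set higher were 17.1% of members and 12.9% of all genes, and with every probe set lower 8.57% and 8.93%.

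The sizes of the differences were not continuous. Over all 45037 probe sets only 856 sizes of difference occurred (equal to 4 decimals, without sign), and the 10 commonest were held by 63.1% of probe sets. Among the 52 members 28 sizes occurred. A size of 0.39 was shared by Exoc2, Exoc3, Stx1a, Syt1 and Syt2, all lower in the survivors, and by 1223 probe sets in all. The size of 0.68 found for Snap91 and Vamp7 was that of 1763 probe sets, the 0.49 of Exoc5, Exoc6b and Syt9 that of 1545, and the 0.59 of Exoc6 that of 415. Such members cannot be ranked against each other. Sizes of 1.41 (Exoc4) and 1.48 (Stx12) recurred in 121 and 48 probe sets. In contrast, 6 members had sizes held by at most 5 probe sets. These were Vamp3, Stx6, Stx18, Syt6 and Stx3, whose differences exceeded 1, and Exoc7 at 0.092. Single signals recurred too: a value of 0.57 was held by 2302 probe sets in the survivors and by 1458 in the reference control, among them Vamp8 on both arrays.

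Genes that work with these proteins were described in 6 lists, and few of their members were past 1, a threshold that 4.78% of all genes exceeded upward and 5.45% downward. Of 12 other SNAREs, such as Ykt6 and Sec22b, 0 were past 1 either way, and the median was 0.088. Use1, a SNARE of the endoplasmic reticulum, had 0.33 in the survivors and 1.07 in the reference control, and Ykt6 had 1.07 in the survivors and 0.57 in the reference control. Of 11 SM proteins, NSF and SNAP adaptors, which guide SNARE assembly and take SNARE bundles apart, 0 were past 1, with a median of 0.00. The largest differences there were -0.92 for Scfd1, an SM protein of the early secretory route, and 0.52 for Vps33a, which acts at lysosomes.

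Of 19 regulators of SNARE assembly 0 were higher by more than 1 and 2 were lower, with a median of 0.25. Cplx2, a complexin that clamps SNARE bundles, had 0.78 in the survivors and 4.45 in the reference control, a difference of -3.67, with the other 2 of its 3 probe sets reaching at most 0.00. Rims2, a scaffold of the active zone, had 0.57 in the survivors and 3.40 in the reference control, a difference of -2.83, with 5 probe sets up to 1.11. Of 13 other C2-domain proteins of exocytosis 0 were past 1, with a median of 0.00 and differences from -0.68 for Doc2a to 0.78 for Esyt3.

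Of 18 GTPases and their partners on the exocytic route, 0 were higher by more than 1 and 2 were lower, with a median of -0.070. Rab8a, a Rab of post-Golgi vesicles that acts with the exocyst, had 0.57 in the survivors and 5.25 in the reference control, a difference of -4.68, and 3 probe sets up to 0.29. Arf6 had 2.37 in the survivors and 3.40 in the reference control, a difference of -1.03, and 4 probe sets up to 0.78. Of 15 genes of the clathrin coat and its adaptors, the setting in which Snap91 works, 3 were higher by more than 1 and 1 was lower, with a median of 0.00. With the median over each gene's probe sets, 0 of the 15 were past 1 either way, beside 2.13% of all genes higher and 2.04% lower. At the probe set of highest control signal 1 was higher and 1 lower, beside 2.96% and 6.63% of all genes. Dnm3, a dynamin that cuts vesicles from the membrane, had 3.13 in the survivors and -0.39 in the reference control, a difference of 3.53, with 5 probe sets down to -0.71. Clta, a clathrin light chain, had -0.11 in the survivors and 4.13 in the reference control, a difference of -4.24. It was lower at all 3 of its probe sets, but the smallest of these differences was only -0.14.

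**Figure D4:**
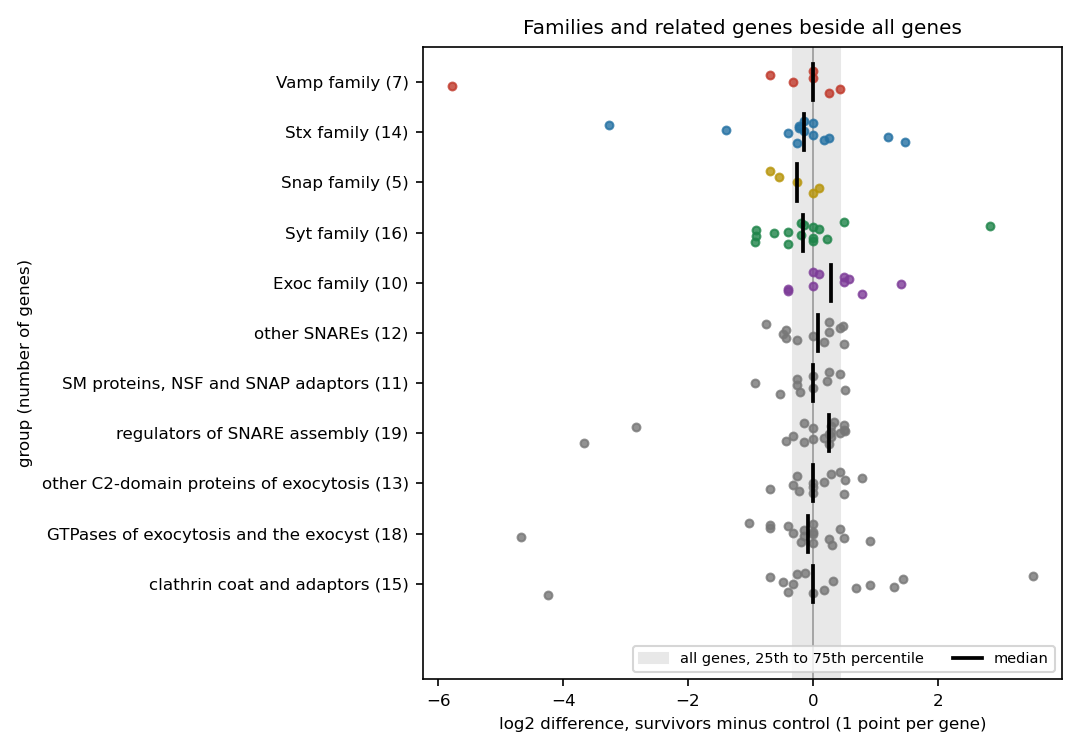
Log2 difference, survivors minus reference control (horizontal axis, 1 point per gene), for the 5 families and 6 related lists (rows, number of genes in parentheses); black bars are medians and the grey band is the 25th to 75th percentile of all genes (-0.32 to 0.43). Every median lies within the band, and the differences beyond 2.5 are single genes such as Vamp3, Rab8a, Clta, Cplx2 and Syt6.

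Scale and probe set were the choices that moved the 7 called members. Centering each array on its median, quantile normalization and loess kept the direction of all 7 and left each past 1, with Syt6 at 2.79, 4.43 and 5.39 and Vamp3 at -5.83, -4.54 and -4.94. Quantile normalization added Snap25, Stx17 and Syt1 to the members higher by more than 1, at 1.25, 1.47 and 1.40. Syt1 was then read at its other probe set of equal deposited mean, which was already past 1 as deposited, at 1.30. Of all genes, 5.84% were then higher by more than 1, against 4.78% as deposited. Centering on the hybridization controls lowered every difference by 2.82, and the median of all genes to -2.82. On that scale Syt6 was at 0.017, because its deposited difference of 2.84 is slightly larger than the shift. Signs on that scale therefore say nothing about single members. Vamp3 and Stx6 lay below the median of all genes by the same amount as before. When all probe sets of a gene were reduced to their median, 1 member was past 1, Syt6 at 1.36, and Vamp3 was at -0.43 and Stx6 at 0.56. Of all genes, 2.13% were then higher and 2.04% lower by more than 1.

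**Figure D5:**
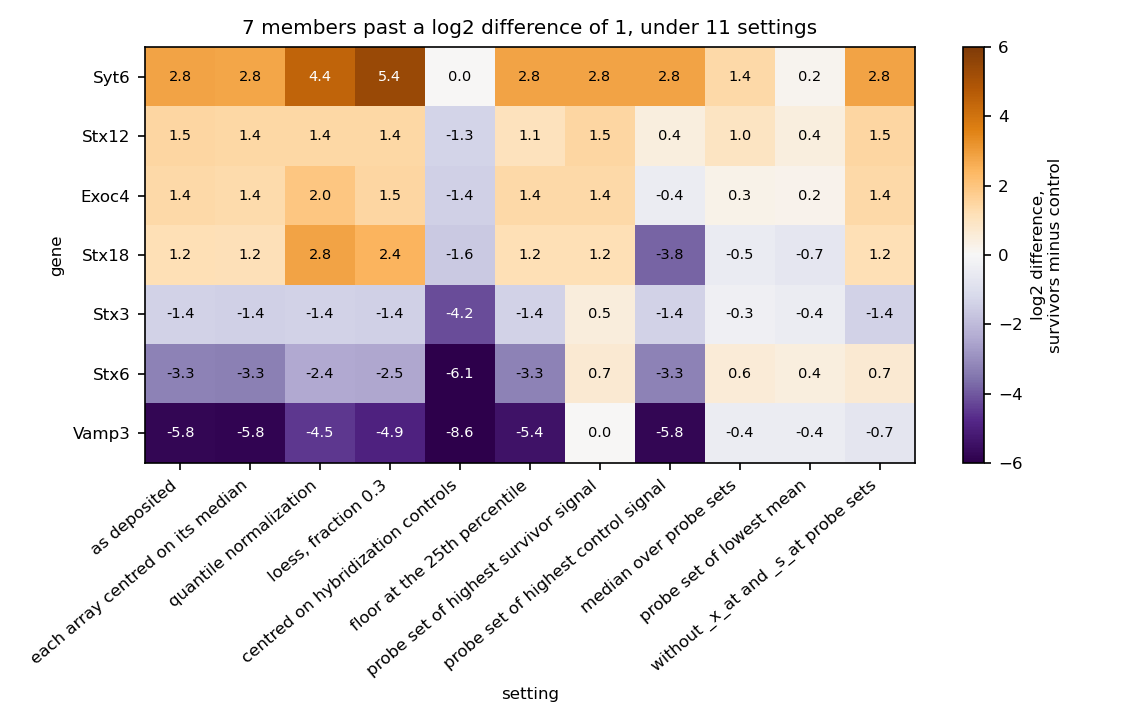
Log2 difference, survivors minus reference control, of the 7 members past 1 (rows) under 11 settings of scale and probe set (columns); numbers are rounded to 1 decimal and colors stop at 6 either way. Outside the column of the hybridization controls Syt6 is above 0 throughout, whereas Stx3, Stx6, Stx18 and Exoc4 change sign with the probe set. The column of the hybridization controls is lower by 2.82 for every gene.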

How the data were processed

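Library inserts of MNNG survivors and reference control cells were each read on 1 array (2 arrays). The authors deposited 1 log2 signal for each probe set. RMA is named for it in the submitters' processing notes, without a version. R, quantile normalization and a program of the library's supplier are named in the study, and which of them shaped the deposited values is not stated in these sources. The 2 deposited arrays do not share a distribution, as quantile normalization across them would give. Their 99th percentiles were 2.68 in the survivors and 4.11 in the reference control. Starting material was total RNA per the methods and genomic DNA per the labels.

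Affymetrix control probe sets (64) were left out, which left 45037. Of these, 34945 carried 1 symbol, 932 carried several and named no gene, and 9160 carried none in the annotation used. Symbols were updated by gene ID for 34741, through the RefSeq annotation of GRCm38.p6, used for names only. No member's symbol changed. The probe set with the highest mean stood for each gene, giving 18193 genes. Equal means were settled by the order of probe set names. The members and lists were chosen with earlier results of these data known.

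Named members were Vamp3, Snap91, Exoc6, those past 1 or at any probe set past 2.5 or with a signal above 5, and the 2 highest and 2 lowest of each family, 21 in all. Further members were named after their values were seen. In each related list up to 2 genes were named. With 1 array per condition no test was made, and precision is limited by this number. Alternatives were median centering, quantile normalization, loess (fraction 0.3), centering on 18 hybridization controls, other probe set choices, leaving out _x_at and _s_at probe sets, annotation symbols as given, thresholds of 0.5 and 1.5, and low signals raised to the 25th percentile of their array. A gene's value counted as moved past 0.45, the scaled median absolute deviation of all differences, and a median past its own standard error. Simulated data were used to check the values as deposited, median centering, quantile normalization, loess and the choice of probe set. The other alternatives were not simulated. Simulated decreases were planted in bright probe sets only, unlike most members here. Tables were handled with pandas 2.3.3 and numpy 2.4.6 under Python 3.11.15, loess came from statsmodels 0.14.6, normal quantiles from scipy 1.17.1 and plots from matplotlib 3.10.9. No coordinates or sequences are given, since no build is named for the probes and the sequences of inserts and probes were not used here.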

Additional observations from a re-analysis of the deposited data

How the results depend on the processing

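With 1 array per condition, no array could be left out and no spread between replicates is known. No paired analysis was possible because each condition has a single array and the labels give no replicate numbers. Of the 231 values of single genes under the alternatives, 160 stayed within the spread of all differences, 59 moved without reversing a call and 12 reversed one. Part of these outcomes was fixed in advance. Annotation symbols as given left every member's symbol unchanged, and median centering shifted all differences equally, by less than 0.45. All 21 values under each of these settings are therefore among the 160 and do not bear on robustness. Centering on the hybridization controls shifted all differences by more than 0.45, so 18 values moved and 3 reversed. Of the 231 values, 33 changed sign, 9 of them under centering on the hybridization controls. Depth cannot be given for arrays, and most members lay at the low signals where values repeat.

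Centering on the hybridization controls lowers each difference by 2.82 by construction, which places 99.4% of all genes lower by more than 1, so its counts and signs say nothing about single members. It gave medians of -2.82 for all members, -2.82 for Vamp, -2.96 for Stx, -3.08 for Snap, -2.99 for Syt and -2.53 for Exoc genes. It gave -2.73 for other SNAREs, -2.82 for SM proteins, -2.57 for regulators, -2.82 for C2-domain proteins, -2.89 for GTPases and -2.82 for the clathrin list. It left 0 members higher by more than 1, 0 higher by more than 2.5, 51 lower by more than 1 and 42 lower by more than 2.5, and turned Exoc4 to -1.42, Stx12 to -1.34 and Stx18 to -1.61. Quantile normalization gave 7 members higher by more than 1, beside 5.84% of all genes. It gave 2 higher by more than 2.5 and 1 lower by as much, and loess gave 1 lower by more than 2.5. Shares of all genes past 2.5 are not given for the alternatives. A floor gave a Stx median of -0.019.

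At the probe set of highest survivor signal, medians were 0.088 for Stx, 0.10 for Snap, 0.00 for Syt, 0.49 for Exoc, 0.25 for SM proteins, 0.18 for C2-domain proteins and 0.68 for the clathrin list. There, 0 members were lower by more than 1, beside 2.96% of all genes, and 0 by more than 2.5, with Stx3 at 0.48 and Stx6 at 0.70. This choice favors survivors by construction, and the median of all genes was 0.18. At the probe set of highest control signal, medians were -0.19 for all members, -0.32 for Vamp, -0.097 for Exoc, -0.25 for other SNAREs, -0.21 for SM proteins and -0.25 for the clathrin list. Here 1 member was higher by more than 1, beside 2.96% of all genes, with Exoc4 at -0.43 and Stx18 at -3.82. Reading genes this way favors the reference control by construction, and the median of all genes was 0.00.

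The median over probe sets gave 0.30 for Snap, with Stx18 at -0.49 and Stx6 at 0.56. It left 1 member higher by more than 1 (2.13% of all genes) and 0 lower by more than 1 (2.04%). Past 2.5, 0 were higher and 0 lower. The probe set of lowest mean gave 0.00 for Stx, 0.33 for Snap, 0.25 for SM proteins and 0.22 for GTPases. The lowest-mean choice left 0 members higher by more than 1 (2.62% of all genes) and 1 lower by more than 1 (1.86%). Past 2.5 it left 0 either way, with Stx18 at -0.68 and Stx6 at 0.43. Without _x_at and _s_at probe sets, the Snap median was 0.00 and that of SM proteins -0.21, with Stx6 at 0.70. Here 1 member was lower by more than 1, beside 4.37% of all genes, and 0 were lower by more than 2.5. A threshold of 0.5 gave 6 higher and 10 lower members (16.0% and 13.5% of all genes), and one of 1.5 gave 1 higher and 2 lower (1.12% and 2.77% of all genes). The cause of these changes was not tested.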
